A study of Homo sapiens with 12 samples.

Results

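The genes described here are the prolactin receptor gene PRLR, the transcription factor genes STAT3, STAT5A, STAT5B and STAT6, the suppressor genes SOCS1, SOCS2, SOCS3 and CISH, and the epithelial transcription factor gene ELF5. They were chosen by name as genes of prolactin and JAK-STAT signalling, with earlier results of these data known. The 10 were looked up among the 55882 symbols of the count table, where each had a row. Transcripts were counted by RNA sequencing in T47D, an established human breast cancer epithelial line that expresses the estrogen receptor. There were 4 groups of 3 libraries: T47D cells with ectopic HOXB13 in estradiol, the same cells in vehicle, control T47D cells in estradiol and control cells in vehicle. Cells of both kinds were kept for 72 h in phenol-free medium with 10% charcoal-stripped serum, which is low in steroid hormones, and then given 2 nM estradiol or ethanol as vehicle for 24 h. Control cells carry the label wild type. How HOXB13, a homeobox transcription factor, was introduced, which promoter drove it, whether the line was 1 clone and whether the control cells carried an empty vector are not stated in the sources used here.

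Prolactin acts through a receptor that has no kinase of its own and uses the bound kinase JAK2. JAK2 phosphorylates the receptor and the STAT5 proteins, which then enter the nucleus and bind DNA. In the mammary gland this route drives alveolar growth and milk protein genes, and ELF5 acts with it there, as shown in mice. The SOCS proteins and CISH are themselves made in response to STATs and damp the same receptors. STAT3 and STAT6 are used by other cytokine receptors, mainly of the interleukin-6 family and of interleukin-4.

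The libraries held 17679824 to 21385996 counts, and 14799 genes passed the filter on low counts. Of the 10 genes 9 passed, and SOCS2 did not. HOXB13 had 92 to 110 counts in HOXB13 cells in estradiol and 106 to 112 in HOXB13 cells in vehicle, against 0 in control cells in estradiol and 0 to 2 in control cells in vehicle, so its counts went with the labels. The 8 epithelial markers EPCAM, CDH1, KRT8, KRT18, KRT19, GATA3, FOXA1 and ESR1 were all detected and summed to 18202 to 25239 CPM (counts scaled to the library size) per library. The 11 leukocyte, endothelial, stromal and fat markers in the table summed to 2.55 to 3.70 CPM in HOXB13 cells in estradiol and 3.03 to 7.18 CPM in HOXB13 cells in vehicle. In control cells they summed to 2.89 to 3.61 CPM in estradiol and 3.76 to 5.06 CPM in vehicle, and the endothelial CDH5 was at 0 in all 12 libraries. In each group the library numbered 2 stood apart from numbers 1 and 3 on the second principal component, which held 17.8% of the variance. Where leaving these libraries out changed a call of a named gene, the value without them stands beside it.

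The promoters of CISH and ELF5 are shown because these were the 2 genes of the set past the threshold for estradiol in at least 1 cell background. Each is the stretch of 250 bases before the transcription start in RefSeq (GRCh38.p14), read 5′ to 3′ on the gene's strand, at chr3:50611775-50612024 (minus strand) for CISH and chr11:34511725-34511974 (minus strand) for ELF5. Capitals mark matches to TTCNNNGAA, the core letters that STAT dimers recognise.
CISH: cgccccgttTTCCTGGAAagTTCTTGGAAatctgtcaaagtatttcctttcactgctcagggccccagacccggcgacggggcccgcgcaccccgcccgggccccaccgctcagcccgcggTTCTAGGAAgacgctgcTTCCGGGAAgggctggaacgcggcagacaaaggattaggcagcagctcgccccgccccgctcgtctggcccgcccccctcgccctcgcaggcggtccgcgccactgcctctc
ELF5: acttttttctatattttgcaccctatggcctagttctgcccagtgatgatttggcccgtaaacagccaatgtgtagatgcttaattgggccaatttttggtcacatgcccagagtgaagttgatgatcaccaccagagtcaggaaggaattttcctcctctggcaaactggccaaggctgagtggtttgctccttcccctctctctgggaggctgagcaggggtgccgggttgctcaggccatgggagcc

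CISH held 4 copies of TTCNNNGAA, which started 241, 230, 129 and 112 bases before the transcription start. Their letters were TTCCTGGAA, TTCTTGGAA, TTCTAGGAA and TTCCGGGAA. The motif reads the same on both strands, and the copies do not overlap. Of 35116 human promoter windows of this length, 6.57% held the motif at all, and 5 windows (0.0142%) held 4 or more copies. RefSeq windows matched 9 of the 10 genes, 13 windows in all, and CISH was the only 1 of the 9 with this motif. The full palindromic estrogen response element, with no mismatch allowed and searched on both strands, was in 0 of the 9 genes and in 14 of all windows (0.0399%). These matches describe letters in the window and not binding.

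PRLR was among the genes with the most counts in these cells. Counts also rise with transcript length, and PRLR had the longest merged exons of the set (13108 bases). A rank scaled by length was not computed over all genes. It ranked 15 among the 14799 tested genes by mean CPM and took 0.279% to 0.492% of the counts of a library. Scaled by the length of its merged exons, PRLR averaged 289.9 CPM per kilobase over the 12 libraries, with a range of 214 to 371. The STATs followed at lower length-scaled levels, with 35.9 CPM per kilobase for STAT3 (26.9 to 46.6), 19.3 for STAT6 (14.96 to 26.2) and 10.1 for STAT5B (7.86 to 11.4). STAT5A was far below its paralog STAT5B, at 0.990 CPM per kilobase (0.612 to 1.33), and the ranges of the 2 did not overlap. ELF5 averaged 24.6 CPM per kilobase (16.5 to 33.8), and its range overlapped those of its neighbours STAT3 and STAT6. Among the suppressors, CISH averaged 3.60 CPM per kilobase (2.40 to 5.40), against 0.555 for SOCS3 (0.0955 to 1.09), 0.276 for SOCS1 (0.0544 to 0.452) and 0.0162 for SOCS2 (0 to 0.0424). The ranges of STAT5A, SOCS3 and SOCS1 overlapped between neighbours in this order, so their order is not firm. Exon lengths came from GENCODE 29, which may differ from the annotation behind the counts. A stretch of 50 bases was the unit of a check for shared sequence, in which 507 such stretches were common to STAT5A and STAT5B, 8.61% of those of STAT5A and 7.81% of those of STAT5B.

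**Figure D1:**
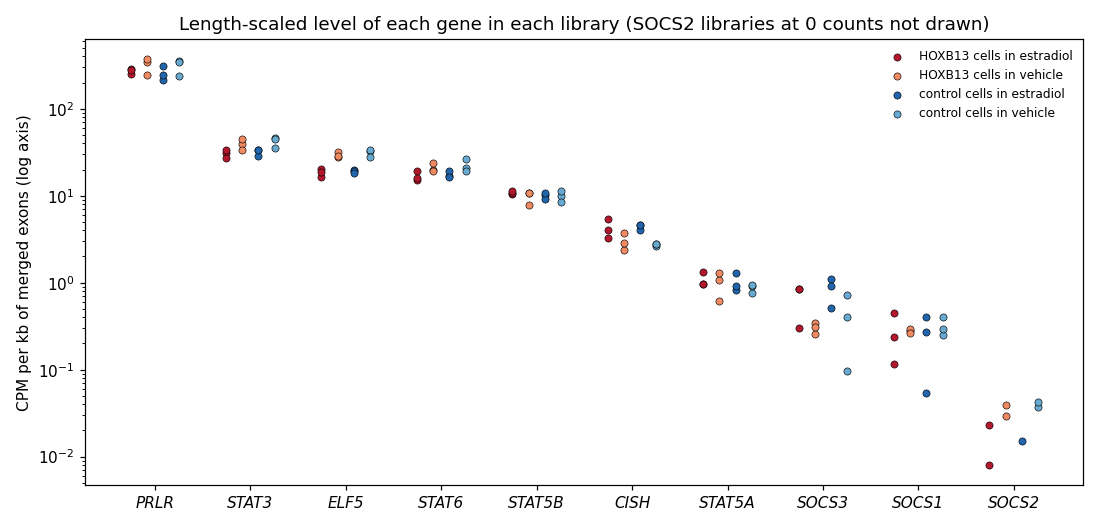
Level of each gene in CPM per kilobase of merged exons (vertical log axis), with a point for each library coloured by group; SOCS2 libraries at 0 counts are not drawn. PRLR lies above the other 9 genes in each library, and SOCS2 has the lowest mean.

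Estradiol lowered ELF5 in HOXB13 cells and in control cells and raised CISH in control cells. The other 7 tested genes did not pass the threshold of an adjusted p under 0.05 in either background, in edgeR's quasi-likelihood F test with Benjamini-Hochberg adjustment over all tested genes. This fit took no account of the replicate numbers. In HOXB13 cells 1 of 9 genes passed, lower in estradiol, where 13.6% of all tested genes passed, 7.22% higher and 6.38% lower. In control cells 2 of 9 passed, 1 higher and 1 lower, where 15.4% of all tested genes passed, 8.65% higher and 6.72% lower. In this fit a share of 1 or 2 in 9 is near that background. The median log2 fold change of the 9 genes was -0.05 in HOXB13 cells and -0.29 in control cells, beside -0.01 over all tested genes in both. The middle gene was SOCS1 in HOXB13 cells, at 4 to 15 counts in a library, and PRLR in control cells. The 2 medians therefore do not show a different response of the set in the 2 backgrounds. In such bulk libraries, fewer cells with a transcript and less of it per cell cannot be told apart.

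The replicate numbers of the groups paired by the rule used here, as equally numbered libraries deviated together. With the replicate number as a block, 4 of 9 genes passed in HOXB13 cells (CISH, ELF5, STAT3 and STAT6), against a background of 30.5% of all genes. In control cells 5 of 9 passed with the block, the same 4 and PRLR, against 34.0%. With the libraries numbered 2 left out of every group, PRLR, STAT3, STAT6, SOCS3, CISH and ELF5 passed in both backgrounds, 6 of 9 genes, against 22.1% of all genes in HOXB13 cells and 24.0% in control cells. With the block and without the libraries numbered 2, the share of the set lay above that over all genes. The set was chosen with earlier results of these data known, so this excess is not independent of the choice. No test of the set was run on so few genes. The values of these fits are printed beside the single genes below where the call differs.

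**Figure D2:**
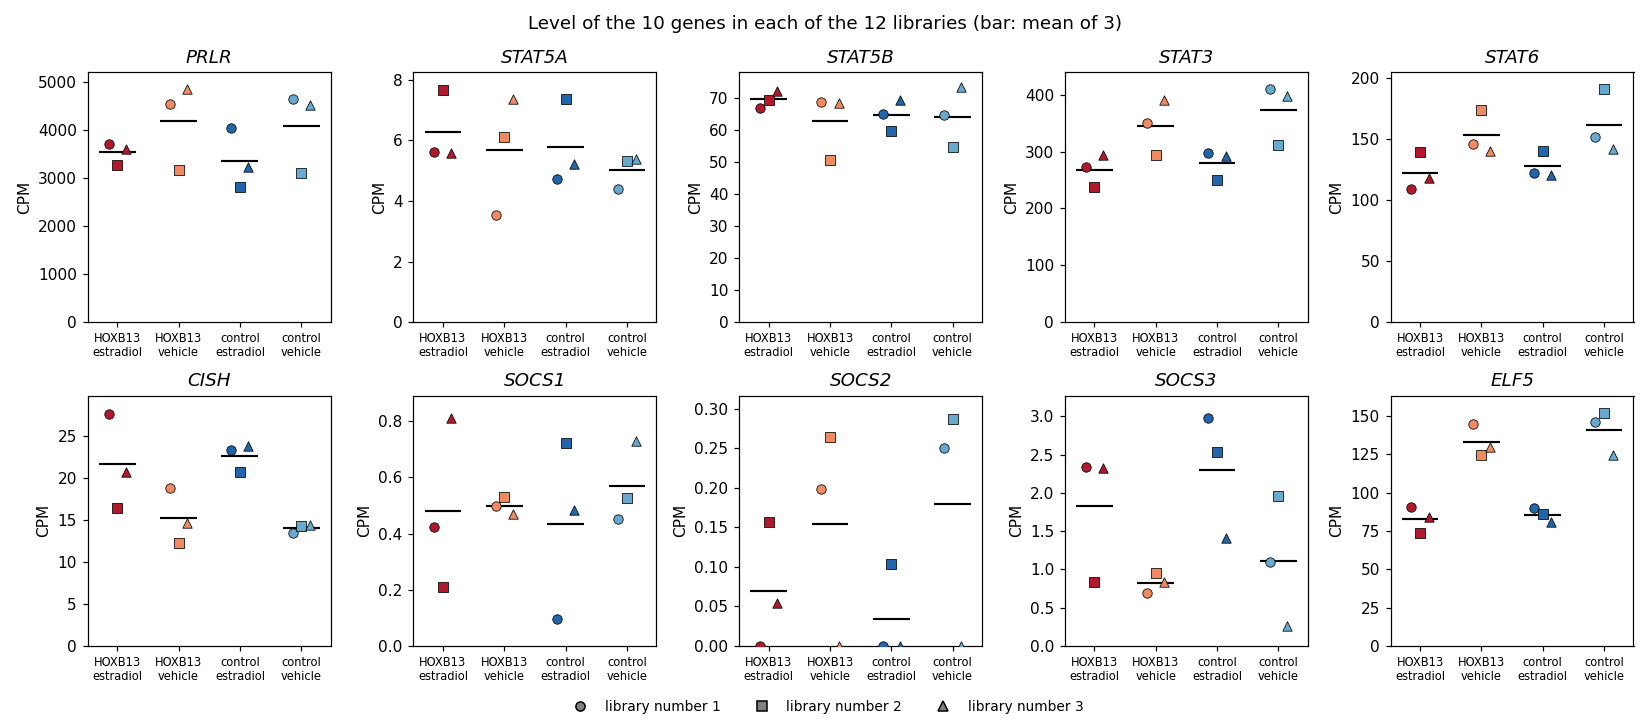
CPM of the 10 genes (vertical axes, each from 0) in each of the 12 libraries, with circles, squares and triangles for libraries numbered 1, 2 and 3 and a bar for the mean of 3. ELF5 lies lower in estradiol than in vehicle in both backgrounds without overlap, and the squares of PRLR and STAT3 lie below the other symbols in all 4 groups.

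The receptor gene PRLR had 3724, 3283 and 3608 CPM in HOXB13 cells in estradiol, against 4556, 3166 and 4866 CPM in HOXB13 cells in vehicle. Control cells had 4047, 2810 and 3235 CPM in estradiol, against 4643, 3120 and 4536 CPM in vehicle. In each group the library numbered 2 was the lowest, and the estradiol and vehicle groups overlapped. The log2 fold change for estradiol was -0.25 ± 0.19 (SE) in HOXB13 cells (adjusted p = 0.457, edgeR) and -0.29 ± 0.19 in control cells (adjusted p = 0.354). With the replicate block it was -0.22 in HOXB13 cells (adjusted p = 0.0752) and -0.28 in control cells, where it passed (adjusted p = 0.0237). Without the libraries numbered 2 it passed in both, at -0.36 in HOXB13 cells (adjusted p = 0.0310) and -0.33 in control cells (adjusted p = 0.0413). The ratio of estradiol to vehicle within equally numbered libraries was below 1 in 5 of 6, and number 2 of the HOXB13 cells had 1.04.

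STAT5A and STAT5B, the paralogs that carry the prolactin signal, did not pass in either background. STAT5A had 5.63, 7.66 and 5.58 CPM in HOXB13 cells in estradiol, against 3.52, 6.13 and 7.38 CPM in HOXB13 cells in vehicle. In control cells STAT5A had 4.74, 7.38 and 5.24 CPM in estradiol, against 4.41, 5.32 and 5.38 CPM in vehicle. The groups overlapped, with log2 fold changes of 0.15 ± 0.26 (95% interval -0.40 to 0.71, adjusted p = 0.775) in HOXB13 cells and 0.20 ± 0.26 (-0.36 to 0.76, adjusted p = 0.677) in control cells. STAT5B had 66.9, 69.4 and 72.3 CPM in HOXB13 cells in estradiol, against 68.8, 50.7 and 68.5 CPM in HOXB13 cells in vehicle. In control cells STAT5B had 65.1, 59.5 and 69.5 CPM in estradiol, against 64.6, 54.7 and 73.3 CPM in vehicle. These groups overlapped too, with log2 fold changes of 0.15 ± 0.14 (-0.14 to 0.44, adjusted p = 0.543) in HOXB13 cells and 0.01 ± 0.14 (-0.28 to 0.30, adjusted p = 0.968) in control cells. The STAT5B intervals leave out a change as large as that of ELF5 in either direction, while those of STAT5A do not leave out a rise of that size.

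STAT3, the main STAT of interleukin-6 family receptors, had 274, 237 and 294 CPM in HOXB13 cells in estradiol, against 349, 294.5 and 391 CPM in HOXB13 cells in vehicle. In control cells STAT3 had 298, 250.4 and 292 CPM in estradiol, against 410.3, 311 and 398 CPM in vehicle. The estradiol libraries lay below the vehicle libraries without overlap in both backgrounds, in HOXB13 cells by a narrow margin. The log2 fold change was -0.36 ± 0.14 in HOXB13 cells (adjusted p = 0.0988, edgeR) and -0.41 ± 0.14 in control cells (adjusted p = 0.0545). With the replicate block both passed, with adjusted p = 0.000226 in HOXB13 cells and 4.2852e-05 in control cells. Without the libraries numbered 2 both passed as well, with adjusted p = 0.00569 in HOXB13 cells and 0.00103 in control cells. Left out singly, HOXB13 vehicle library 2 also put the HOXB13 cells past the threshold (adjusted p = 0.0437). Control vehicle library 2 (adjusted p = 0.0122), HOXB13 vehicle library 2 (0.0336) or HOXB13 vehicle library 3 (0.0485) did so for the control cells. DESeq2 called the control cells (adjusted p = 0.0295), and the fit without the expression filter called both (0.0439 in HOXB13 cells and 0.0111 in control cells).

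STAT6, the STAT of the interleukin-4 receptor, had 109, 139 and 118 CPM in HOXB13 cells in estradiol, against 146, 174 and 140.1 CPM in HOXB13 cells in vehicle. In control cells STAT6 had 122, 140.4 and 120.4 CPM in estradiol, against 152, 191 and 142 CPM in vehicle. Again the estradiol libraries lay below the vehicle libraries without overlap, while number 2 was the highest library of every group. The log2 fold change was -0.33 ± 0.13 in HOXB13 cells (adjusted p = 0.131) and -0.34 ± 0.13 in control cells (adjusted p = 0.108). The replicate block put both past the threshold, with adjusted p = 0.000561 in HOXB13 cells and 0.000436 in control cells, as did leaving out the libraries numbered 2, with 0.0136 in HOXB13 cells and 0.0351 in control cells. STAT6 shares 59 exon bases (0.808% of its length) with LRP1 and 69 (0.945%) with NAB2 on the opposite strand. LRP1 fell in both backgrounds, by 0.66 on the log2 scale in HOXB13 cells (adjusted p = 0.0103) and by 0.84 in control cells (adjusted p = 0.00193). The strand setting of the counting is not given, so reads in the shared bases cannot be assigned, and their part in the STAT6 values was not tested.

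CISH, a suppressor that STAT5 induces, had 27.6, 16.5 and 20.7 CPM in HOXB13 cells in estradiol, against 18.9, 12.3 and 14.7 CPM in HOXB13 cells in vehicle. In control cells CISH had 23.3, 20.7 and 23.8 CPM in estradiol, against 13.5, 14.3 and 14.4 CPM in vehicle. The control groups did not overlap, while HOXB13 estradiol library 2 lay below HOXB13 vehicle library 1. In control cells CISH rose by 0.68 ± 0.19 on the log2 scale (adjusted p = 0.0219, edgeR). In HOXB13 cells the log2 fold change was 0.50 ± 0.19 (adjusted p = 0.0954), which passed with the replicate block (adjusted p = 0.00546), without the libraries numbered 2 (adjusted p = 0.0169) and without the expression filter (adjusted p = 0.0337). The 4 copies of the STAT motif printed above stand in the promoter of this gene.

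The CISH call rested on most control libraries. It ended without control estradiol library 1 (adjusted p = 0.0597) or 3 (0.0786) and without control vehicle library 1 (0.0797) or 3 (0.0582), while its log2 fold change stayed between 0.65 and 0.74 over the 12 fits that left out 1 library. In HOXB13 cells CISH passed without HOXB13 estradiol library 2 (adjusted p = 0.0320) or HOXB13 vehicle library 1 (0.0489). Within equally numbered libraries the estradiol to vehicle ratio was 1.46, 1.34 and 1.41 in HOXB13 cells and 1.73, 1.45 and 1.65 in control cells, above 1 in 6 of 6. CISH shares 218 exon bases (4.26%) with MAPKAPK3 on the opposite strand, whose log2 fold change was 0.34 ± 0.14 in HOXB13 cells (adjusted p = 0.124) and 0.36 ± 0.14 in control cells (adjusted p = 0.0916). Its part in the CISH values was not tested.

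SOCS3, the feedback inhibitor of interleukin-6 family signalling, was low. It had 44, 16 and 43 counts in HOXB13 cells in estradiol, against 14, 18 and 16 in HOXB13 cells in vehicle. In control cells SOCS3 had 61, 49 and 29 counts in estradiol, against 22, 41 and 5 in vehicle. The groups overlapped in both backgrounds, since HOXB13 estradiol library 2 was as low as the vehicle libraries and control vehicle library 2 lay above control estradiol library 3. The log2 fold change was 1.14 ± 0.57 in HOXB13 cells (95% interval -0.07 to 2.36, adjusted p = 0.220) and 1.04 ± 0.54 in control cells (-0.11 to 2.19, adjusted p = 0.226). Without the libraries numbered 2 it was 1.61 in HOXB13 cells (adjusted p = 0.0311) and 1.67 in control cells (adjusted p = 0.0252), past the threshold in both. Leaving out control vehicle library 2 alone gave 1.74 in control cells (adjusted p = 0.0490). With the block it did not pass, at adjusted p = 0.0869 in HOXB13 cells and 0.0919 in control cells.

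The other suppressors were near the limit of detection. SOCS1, an inhibitor of JAK kinases, had 8, 4 and 15 counts in HOXB13 cells in estradiol, against 10, 10 and 9 in HOXB13 cells in vehicle. In control cells SOCS1 had 2, 14 and 10 counts in estradiol, against 9, 11 and 14 in vehicle. The groups overlapped, and its log2 fold changes of -0.05 ± 0.63 in HOXB13 cells (95% interval -1.40 to 1.29) and -0.39 ± 0.62 in control cells (-1.72 to 0.94) leave a change of either sign possible at this depth. SOCS1 lies on the opposite strand within the span of RMI2 and shares 0 exon bases with it. SOCS2, a suppressor of growth hormone and prolactin signalling, had 0, 3 and 1 counts in HOXB13 cells in estradiol, against 4, 5 and 0 in HOXB13 cells in vehicle. In control cells SOCS2 had 0, 2 and 0 counts in estradiol, against 5, 6 and 0 in vehicle. Its 26 counts in all were too few for the test, and 5 libraries were at 0, which allows up to 0.140 to 0.170 CPM in a library (3 counts, counting error only). SOCS2 shares 277 exon bases (4.09%) with SOCS2-AS1 on the opposite strand, which had 8 counts in control vehicle library 2 and at most 2 in the other libraries, and the part of shared reads was not tested.

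ELF5, the ETS transcription factor of the alveolar lineage, had 90.8, 74.1 and 84.1 CPM in HOXB13 cells in estradiol, against 144.6, 124.5 and 129.7 CPM in HOXB13 cells in vehicle. In control cells ELF5 had 89.8, 86.2 and 81.2 CPM in estradiol, against 145.9, 151.7 and 124.9 CPM in vehicle. The groups were well apart in both backgrounds. ELF5 fell by 0.68 ± 0.11 on the log2 scale in HOXB13 cells (adjusted p = 0.000976, edgeR) and by 0.72 ± 0.11 in control cells (adjusted p = 0.000516). Both calls held in each of the 12 fits that left out 1 library, with a highest adjusted p of 0.00880 in HOXB13 cells and 0.00548 in control cells. Within equally numbered libraries the estradiol to vehicle ratio was 0.628, 0.595 and 0.648 in HOXB13 cells and 0.615, 0.568 and 0.650 in control cells.

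Across the set, estradiol and vehicle libraries did not overlap for 3 of 9 genes in HOXB13 cells (STAT3, STAT6 and ELF5, lower), where this held for 29.9% of all tested genes. In control cells they did not overlap for 4 of 9 (the same 3 and CISH, higher), where it held for 30.9% of all genes. Within equally numbered libraries, 3 genes were lower in estradiol in 6 of 6 (STAT3, STAT6 and ELF5) and 1 was higher in 6 of 6 (CISH). The share of all tested genes that went 1 way in 6 of 6 was not computed, so these counts describe single genes and not the set. SOCS3 was higher in 5 of 6, with ratios of 0.877 to 5.39. STAT5A and STAT5B were each higher in 4 of 6, and SOCS1 in 2 of 6.

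**Figure D3:**
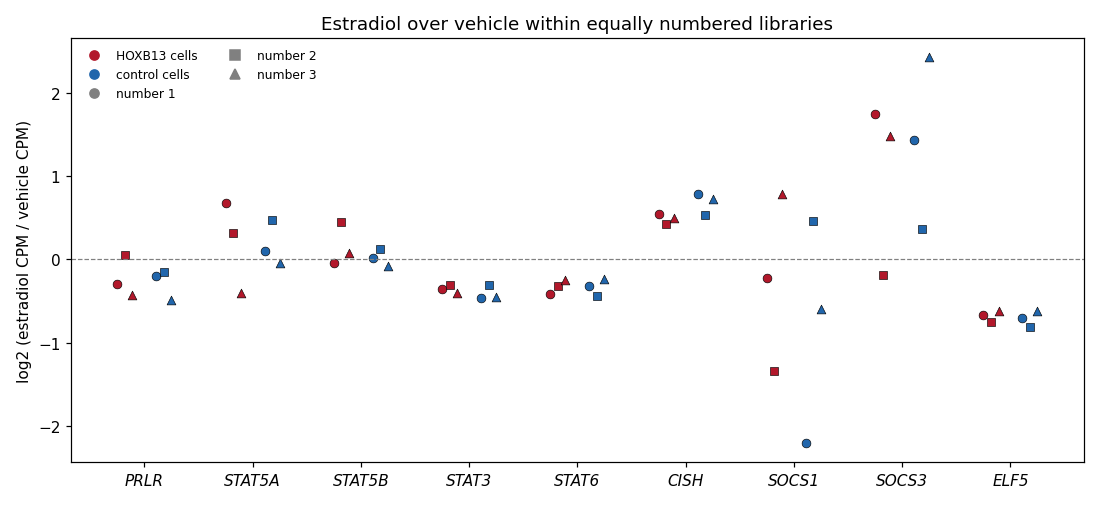
Log2 ratio of estradiol CPM to vehicle CPM (vertical axis) within equally numbered libraries, for HOXB13 cells (red) and control cells (blue), with symbols for library numbers 1, 2 and 3. STAT3, STAT6 and ELF5 lie below 0 and CISH above 0 in 6 of 6, while SOCS1 and SOCS3 spread widely. The share of all tested genes with 6 of 6 was not computed.

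HOXB13 cells and control cells did not differ detectably in any of the 9 tested genes. The HOXB13 transcript itself was low in HOXB13 cells, at 4.79 to 5.84 CPM in estradiol and 5.56 to 5.65 CPM in vehicle. Cells with a higher level were not among these libraries. In estradiol 0 of 9 passed, where 0.0135% of all tested genes passed (2 genes), and in vehicle 0 of 9, where 0.0203% passed (3 genes). At an unadjusted p under 0.05 the count over all genes was 489 in estradiol and 559 in vehicle, and 0 of the 9 were among them in either. The log2 fold changes of HOXB13 over control cells ran between -0.33 (SOCS3) and 0.15 (SOCS1) in estradiol and between -0.43 (SOCS3) and 0.17 (STAT5A) in vehicle. PRLR averaged 3538 ± 229 CPM in HOXB13 cells and 3364 ± 628 CPM in control cells (SD, n = 3 each) in estradiol, a log2 fold change of 0.07 ± 0.19 (SE, 95% interval -0.33 to 0.47). In vehicle PRLR averaged 4196 ± 906 CPM in HOXB13 cells and 4099 ± 850 CPM in control cells, a log2 fold change of 0.03 ± 0.19 (-0.37 to 0.44). ELF5 had -0.05 ± 0.11 (-0.28 to 0.19) in estradiol and -0.08 ± 0.11 (-0.32 to 0.15) in vehicle, so a change as large as its estradiol response lay outside both intervals. HOXB13 and control libraries overlapped for 9 of 9 genes in both media, while 9.88% of all tested genes did not overlap in estradiol and 7.14% did not in vehicle.

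The estradiol responses of HOXB13 and control cells were also compared directly, by an interaction term. No gene of the set passed, and 0% of all tested genes did (0 genes, and 219 at an unadjusted p under 0.05, 0 of the 9 among them). DESeq2 and limma-voom also called 0 genes, with 239 and 226 at an unadjusted p under 0.05. The difference of HOXB13 minus control responses was 0.04 ± 0.15 on the log2 scale for ELF5 (95% interval -0.29 to 0.37) and -0.18 ± 0.26 for CISH (-0.75 to 0.38). CISH therefore passed in control cells and not in HOXB13 cells without a detectable difference between the 2 responses.

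**Figure D4:**
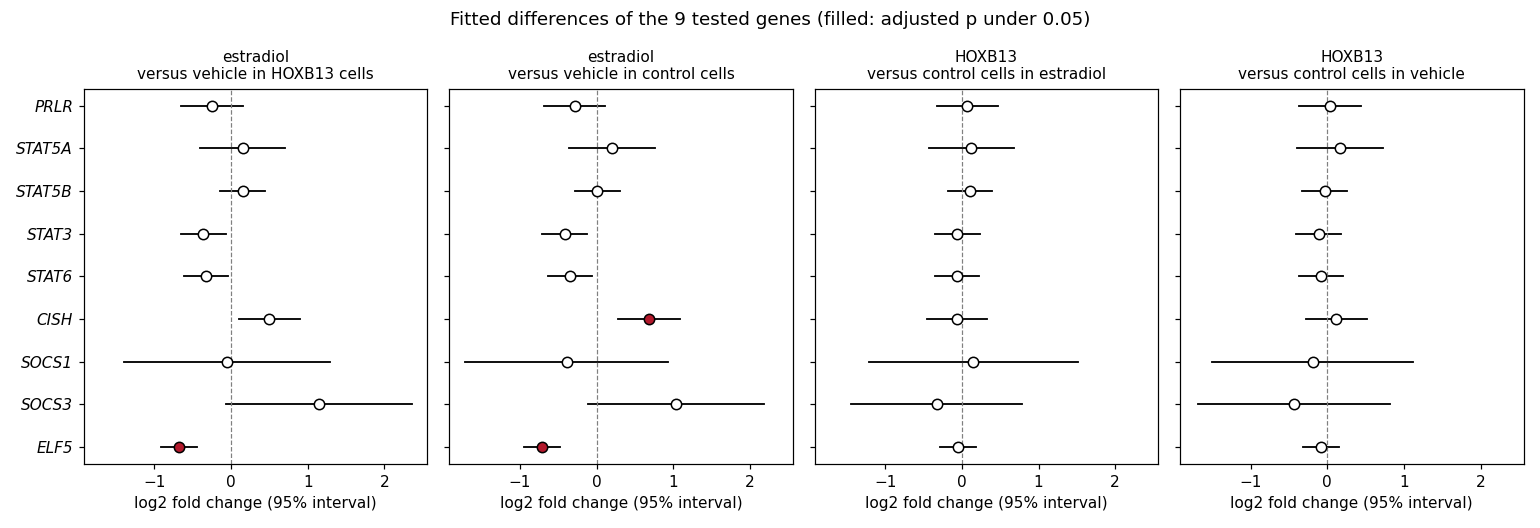
Fitted log2 fold change (horizontal axis) with its 95% interval for the 9 tested genes in 4 comparisons, filled where the adjusted p was under 0.05. ELF5 is filled on the left of 0 for estradiol in both backgrounds and CISH on the right in control cells, and the HOXB13 panels hold 0 filled points.

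Genes whose pattern over the 12 libraries was most like PRLR were KDM3B, SP1 and SPG11, with root mean square differences of 0.0508, 0.0523 and 0.0591 in centred log2 CPM, where the spread of PRLR itself was 0.257. Each of the 3 was lower in the library numbered 2 than in the mean of numbers 1 and 3 in 4 of 4 groups, as PRLR was. For CISH (own spread 0.359) they were AC007620.3, EED and SERTAD4, at 0.126, 0.142 and 0.144. For ELF5 (own spread 0.364) they were TRIM3, GRB7 and SCYL3, at 0.0961, 0.103 and 0.108. The choice was made among 12014 genes and is a description.

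The shift of the libraries numbered 2, seen over all genes on the second principal component, touched several genes of the set. The share of all tested genes shifted the same way in 4 of 4 groups was not computed. Whether the set differs from other genes in this was therefore not tested. Against the mean of numbers 1 and 3, number 2 was lower in 4 of 4 groups for PRLR (log2 difference -0.57 to -0.16), STAT3 (-0.38 to -0.24) and STAT5B (-0.44 to -0.0031). For STAT5B in HOXB13 cells in estradiol the difference was close to none, and number 2 lay between numbers 1 and 3. Number 2 was higher in 4 of 4 for STAT6 (0.21 to 0.38) and STAT5A (0.12 to 0.56). ELF5 and SOCS1 were split 2 and 2, CISH was lower in 3, and SOCS3 was higher in 3. What the library numbers mean is not in the labels, and the part of these libraries in the results was not tested beyond leaving them out.

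Of the ligands and other cytokine receptors, 21 of 37 were tested. Estradiol raised 1 and lowered 5 in HOXB13 cells, where 7.22% of all tested genes rose and 6.38% fell. In control cells it raised 1 and lowered 4, where 8.65% of all genes rose and 6.72% fell. The gene that rose was IL6ST, the shared signalling chain gp130 of the interleukin-6 family. It averaged 398 CPM in estradiol and 188 CPM in vehicle in HOXB13 cells, a log2 fold change of 1.08 ± 0.26 (adjusted p = 0.0117) that did not pass without HOXB13 estradiol library 1 (0.0573). In control cells it averaged 367 CPM in estradiol and 156 CPM in vehicle, 1.24 ± 0.26 on the log2 scale (adjusted p = 0.00456). CTF1, which encodes the gp130 ligand cardiotrophin-1, fell by 0.999 in HOXB13 cells (adjusted p = 0.00120) and by 0.76 in control cells (adjusted p = 0.00533). PRL, the gene of prolactin itself, had 4 counts in all, with 10 of 12 libraries at 0.

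Other receptor genes fell by less and less firmly. The growth hormone receptor gene GHR fell by 0.39 in HOXB13 cells (adjusted p = 0.0349) and by 0.44 in control cells (adjusted p = 0.0160). IL4R, which signals through STAT6, fell by 0.54 in HOXB13 cells (adjusted p = 0.0298) and by 0.57 in control cells (adjusted p = 0.0169). EPOR, the erythropoietin receptor gene, fell by 0.73 in HOXB13 cells (adjusted p = 0.0268) and had -0.57 in control cells (adjusted p = 0.0770, and 0.0298 with the block). IL13RA1, the partner chain of IL4R, fell by 0.36 in HOXB13 cells (adjusted p = 0.0379) and by 0.34 in control cells (adjusted p = 0.0485), and is named after its values were seen. In control cells the GHR call ended without control estradiol library 2 (0.0674) or control vehicle library 3 (0.0660), and the IL4R call without control vehicle library 1 (0.0686) or control estradiol library 2 (0.0837). In HOXB13 cells GHR ended without control estradiol library 3 or any HOXB13 library but vehicle 2 (highest 0.144), and IL4R without any HOXB13 library but vehicle 3 (highest 0.128). EPOR ended there without HOXB13 estradiol library 1 or 2 or vehicle library 2 or 3 (highest 0.0971), and without the libraries numbered 2 (0.114). In control cells EPOR passed without control vehicle library 3 (0.0353) and in DESeq2 (0.0499). IL13RA1 passed in 5 of 12 such fits in HOXB13 cells and 3 of 12 in control cells. Without the expression filter it did not pass in HOXB13 cells (0.120) or control cells (0.147), nor with only the groups compared (0.0590 in HOXB13 cells and 0.115 in control cells). With only the groups compared, the calls of GHR (0.0768) and IL4R (0.0602) in HOXB13 cells also ended.

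Among the JAK kinases and other STATs, 6 of 7 were tested and 1 rose in each background. Over all tested genes 7.22% rose in HOXB13 cells and 8.65% in control cells. The gene of this list that rose was JAK1, the kinase of gp130 and many interleukin receptors. It averaged 356 CPM in estradiol and 185 CPM in vehicle in HOXB13 cells, a log2 fold change of 0.94 ± 0.12 (adjusted p = 0.000248). In control cells it averaged 358 CPM in estradiol and 165 CPM in vehicle, 1.12 ± 0.13 on the log2 scale (adjusted p = 4.8002e-05), and both calls held in each of the 12 fits that left out 1 library. JAK2, the kinase that the prolactin receptor uses, had means of 5.17 to 6.80 CPM over the 4 groups and did not pass (adjusted p = 0.354 in HOXB13 cells and 0.927 in control cells).

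Of the other negative regulators and adaptors, 31 symbols were listed, 29 were in the count table and 28 were tested. In HOXB13 cells 1 rose and 1 fell, and in control cells 1 rose, shares below those over all genes given above. TCEB1, a subunit of the ubiquitin ligase that SOCS proteins recruit, rose by 0.42 in HOXB13 cells (adjusted p = 0.0448), passing in 5 of 12 fits that left out 1 library. In control cells TCEB1 had 0.31 (adjusted p = 0.124), which passed with the block (0.00562), without the libraries numbered 2 (0.0226) and without control vehicle library 2 alone (0.0383). PIAS3, an inhibitor of STAT3, fell by 0.42 in HOXB13 cells (adjusted p = 0.0100), which ended without HOXB13 vehicle library 1 (0.0697), and had -0.19 in control cells (adjusted p = 0.225). SH2B2, an adaptor of JAK2, was low, with 2.49 CPM in estradiol and 1.30 CPM in vehicle in HOXB13 cells (adjusted p = 0.0931, and 0.0425 with the block). In control cells it had 2.00 CPM in estradiol and 0.419 CPM in vehicle, a rise of 2.24 ± 0.39 on the log2 scale (adjusted p = 0.00137). The difference of its responses did not pass (-1.32 ± 0.53, unadjusted p = 0.0243).

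Of the 20 milk protein and lactation genes 19 were in the table and 6 were tested, and 0 passed in either background without the replicate block. Over all tested genes 13.6% passed in HOXB13 cells and 15.4% in control cells. With the block, MUC1, a mucin of luminal cells, passed lower in HOXB13 cells (-0.61, adjusted p = 0.000134) and control cells (-0.38, adjusted p = 0.00691). FOLR1, a folate receptor gene, passed lower with the block in HOXB13 cells (-0.45, adjusted p = 0.00325). CSN1S1, CSN2, CSN3, LALBA, BTN1A1, TNFSF11 and GLYCAM1 had 0 counts in all 12 libraries, which allows up to 0.140 to 0.170 CPM in a library. PIP, a secretory gene of luminal breast cells, averaged 302 CPM in estradiol and 419 CPM in vehicle in HOXB13 cells and 313 CPM in estradiol and 399.7 CPM in vehicle in control cells (adjusted p = 0.243 in HOXB13 cells, and 0.0430 with the block, and 0.375 in control cells).

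Of the genes known as STAT5 or STAT3 targets 26 were tested. The shares that passed lay above those over all tested genes, in a list chosen with earlier results of these data known. In HOXB13 cells 5 rose, 4 fell and 17 did not pass, where 13.6% of all tested genes passed. In control cells 4 rose, 4 fell and 18 did not pass, where 15.4% of all genes passed, with a median log2 fold change of 0.02 in HOXB13 cells and -0.09 in control cells. MYC, a growth regulator that estradiol also induces in breast cells, rose by 1.85 in HOXB13 cells (adjusted p = 7.0933e-05) and by 2.00 in control cells (adjusted p = 2.5321e-05). PIM1, a survival kinase gene that STATs induce, rose by 1.46 in HOXB13 cells (adjusted p = 0.00221) and by 1.60 in control cells (adjusted p = 0.000886). CCND1, the cyclin D1 gene, rose by 0.63 in HOXB13 cells and 0.81 in control cells, and BIRC5, the gene of the inhibitor of apoptosis survivin, by 0.67 in HOXB13 cells and 0.62 in control cells. PIM2, a relative of PIM1, rose by 0.55 in HOXB13 cells (adjusted p = 0.0429), a call that held in 4 of 12 fits that left out 1 library and in neither limma-voom (0.0581) nor the fit of only the groups compared (0.0740). In control cells PIM2 had 0.41 (adjusted p = 0.124, and 0.0116 with the block).

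ID2, an inhibitor of helix-loop-helix factors, fell by 1.04 in HOXB13 cells and by 1.02 in control cells, and JUNB, a subunit of the AP-1 factor, fell by 0.76 in both. BCL3, a partner of NF-kB subunits, averaged 23.7 CPM in estradiol and 47.8 CPM in vehicle in HOXB13 cells, and 28.6 CPM in estradiol and 42.0 CPM in vehicle in control cells. It fell by 1.01 in HOXB13 cells and by 0.56 in control cells, and the difference of its responses did not pass (-0.45 ± 0.17, unadjusted p = 0.0187). TNFRSF11A, the gene of the receptor RANK, averaged 3.23 CPM in estradiol and 4.65 CPM in vehicle in HOXB13 cells (-0.53 ± 0.24, adjusted p = 0.176). In control cells it averaged 2.17 CPM in estradiol and 7.25 CPM in vehicle and fell by 1.74 ± 0.24 (adjusted p = 0.000248). The difference of its responses was 1.21 ± 0.34 (unadjusted p = 0.00309), which did not pass after adjustment. BCL6, a repressor that STAT5 represses, fell by 0.53 in HOXB13 cells (adjusted p = 0.00620) and had -0.30 in control cells (adjusted p = 0.0914, and 0.00537 with the block). PIM2, BCL6, JAK2 and the genes given from the milk list were named after their values were seen, as was CDKN1A.

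With the replicate block, which called 30.5% of all genes in HOXB13 cells and 34.0% in control cells, the receptor list had 1 rise and 7 falls in HOXB13 cells and 1 and 6 in control cells, and the JAK and STAT list 1 rise and 3 falls in HOXB13 cells and 1 and 1 in control cells. The negative regulators had 3 rises and 4 falls in HOXB13 cells and 5 and 3 in control cells. The milk genes had 0 rises and 3 falls in HOXB13 cells and 0 and 1 in control cells, and the target list 5 rises and 7 falls in HOXB13 cells and 7 and 9 in control cells. Without the libraries numbered 2, where 22.1% of all genes passed in HOXB13 cells and 24.0% in control cells, the receptor list had 1 rise and 4 falls in both. The JAK and STAT list then had 1 rise and 2 falls in HOXB13 cells and 1 and 1 in control cells, and the negative regulators 2 and 2 in HOXB13 cells and 4 and 2 in control cells. The milk genes had 0 calls in either, and the target list 5 rises and 7 falls in HOXB13 cells and 6 and 5 in control cells. Between HOXB13 and control cells, 0 genes of these 5 lists passed in estradiol or vehicle without the block. With the block 1 target gene passed. This was CDKN1A, the gene of the cell cycle inhibitor p21, which was lower in HOXB13 cells in estradiol (-0.42, adjusted p = 0.0149).

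**Figure D5:**
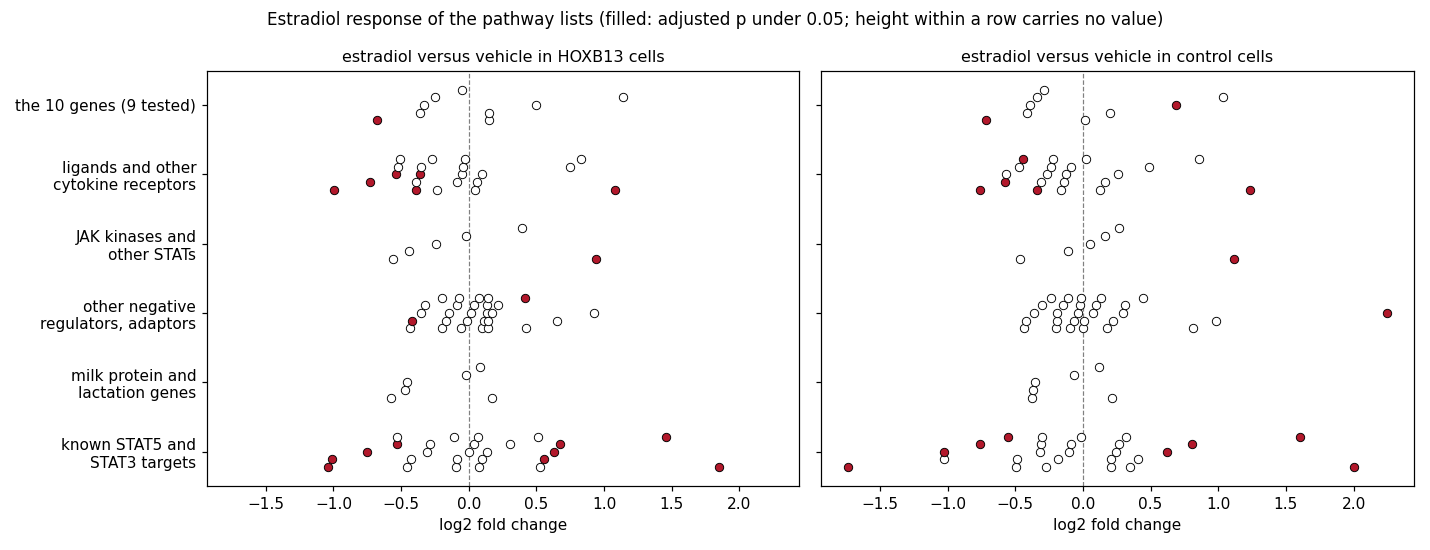
Log2 fold change for estradiol (horizontal axis) of each tested gene of the set and of the 5 other lists, in HOXB13 cells (left) and control cells (right), filled where the adjusted p was under 0.05; height within a row carries no value. The filled points of the target list lie on both sides of 0, and the milk list has 0 filled points.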

How the data were processed

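RNA was extracted with a column kit and sequenced by a service provider, per the labels. The authors deposited raw counts per gene symbol for the 12 libraries, and the submitters' processing notes list the tools FastQC, STAR, HTSeq and Picard, with no versions, and the builds GRCh37 and hg19. The strand setting and the annotation are not stated in the sources used here, and 0 columns of other samples were present.

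Genes were kept by filterByExpr in edgeR 4.0.16 (R 4.3.3; minimum count 10, minimum total 15), and CPM used TMM factors of 0.974 to 1.05. Each comparison was a contrast of a group-means model over all 12 libraries, tested by edgeR's robust quasi-likelihood F statistic, with p-values adjusted after Benjamini and Hochberg over 14799 genes (threshold 0.05). Standard errors were the unshrunk log2 fold change over the square root of F. The printed log2 fold changes, on which the intervals are centred, were those that edgeR shrinks slightly, mostly at low counts. Log2 CPM used a prior count of 2. The pipeline was tested on simulated data. The 10 genes and the 5 lists were chosen with earlier results of these data known. Of each list, the 3 genes with the smallest adjusted p per direction were named, exceptions being given in the text. For pattern likeness, genes needed an average log2 CPM of at least 1.

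Equally numbered libraries deviated together from their group means (correlations across genes of 0.123 to 0.457 in 12 pairs, each over 0.1). Deviations from a mean of 3 sum to 0, so a shift of number 2 shared by the groups can give positive values for numbers 1 and 3 too. Unequally numbered libraries were not compared, so a pairing of numbers 1 and 3 is not shown. On this limited evidence from the data alone the replicate number was used as a block, but only in an alternative fit. The main tests had no replicate term. Whether replicates came from separate cultures is not in the labels, and p-values then cover only how far these libraries spread, part of which may be technical. No 2 replicates looked like 1 library, since the chi-square of their counts over its degrees of freedom was 7.02 to 46.0. With 3 against 3 libraries an exact permutation test cannot go below 0.1, so none was used. Alternatives were DESeq2 1.42.0, limma-voom 3.58.1, median-ratio factors, no filter, the replicate block, only the groups compared, leaving out the libraries numbered 2 and leaving out each library in turn. RefSeq had no window for SOCS2 in the table used.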

Additional observations from a re-analysis of the deposited data

How the results depend on the processing

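The ELF5 calls for estradiol kept their direction and side of the threshold under all alternatives run in both backgrounds. Over the alternatives of the 9 tested genes in 5 comparisons, 742 values kept direction and side, 26 came to pass, 4 no longer passed (CISH in control cells, printed in the report) and 72 changed sign. No value that changed sign passed the threshold. The cause of the changes was not tested. With the replicate block, which pairs equally numbered libraries, 4 genes of the set passed for estradiol in HOXB13 cells and 5 in control cells. Leaving out the libraries numbered 2 gave 6 in each, and no filter gave 3 in HOXB13 cells (CISH, ELF5 and STAT3). Leaving out 1 library gave 1 to 2 in HOXB13 cells and 1 to 4 in control cells. Shares over all genes were not computed for the fits with no filter or with 1 library left out. The counts of the set in those fits therefore have no background beside them. The block changed no other call of the set.

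Over all genes, the block called 4519 in HOXB13 cells and 5032 in control cells for estradiol, where the design without it called 2012 in HOXB13 cells and 2275 in control cells. Leaving out the libraries numbered 2 gave 3285 in HOXB13 cells and 3567 in control cells. Leaving out 1 library gave 1228 (without HOXB13 estradiol or vehicle library 1) to 2232 in HOXB13 cells and 1478 (without control estradiol library 3; 1487 without control vehicle library 1) to 2758 in control cells. For HOXB13 against control cells in estradiol, where 2 genes passed, DESeq2 called 20, limma-voom 5, no filter 30, and the block 58, while 21 were called without the libraries numbered 2 and 2 to 3 when 1 library was left out. In vehicle, where 3 passed, DESeq2 called 20, limma-voom 6, no filter 62, and the block 60, while 37 were called without the libraries numbered 2, 1 when only the groups compared were fitted and 1 to 6 when 1 library was left out. The interaction had 4 calls with no filter and 1 without the libraries numbered 2.

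Signs changed without the libraries numbered 2 for SOCS1 under estradiol in HOXB13 cells (0.36) and STAT5B in control cells (-0.032). For HOXB13 against control cells this gave 0.097 for SOCS3, 0.045 for CISH and 0.040 for ELF5 in estradiol and 0.16 for SOCS3 and 0.021 for ELF5 in vehicle. In the interaction it gave -0.024 for PRLR, 0.020 for STAT5A, -0.053 for STAT6 and -0.060 for SOCS3, and limma-voom gave 0.036 for STAT5A and -0.34 for SOCS3. Some log2 fold changes crossed 0 when 1 library was left out. For estradiol in HOXB13 cells they ran -0.095 to 0.39 for STAT5A and -0.65 to 0.31 for SOCS1. For estradiol in control cells they ran -0.012 to 0.33 for STAT5A, -0.092 to 0.12 for STAT5B and -0.95 to 0.085 for SOCS1. For HOXB13 against control cells in estradiol they ran -0.041 to 0.23 for PRLR, -0.14 to 0.019 for STAT3, -0.045 to 0.34 for STAT5A, -0.17 to 0.010 for STAT6, -0.45 to 0.71 for SOCS1, -0.59 to 0.018 for SOCS3, -0.28 to 0.096 for CISH and -0.12 to 0.028 for ELF5. For HOXB13 against control cells in vehicle they ran -0.13 to 0.20 for PRLR, -0.063 to 0.42 for STAT5A, -0.14 to 0.094 for STAT5B, -0.18 to 0.060 for STAT6, -0.33 to 0.022 for SOCS1, -0.89 to 0.26 for SOCS3 and -0.066 to 0.25 for CISH. For the interaction they ran -0.12 to 0.21 for PRLR, -0.040 to 0.18 for STAT3, -0.29 to 0.19 for STAT5A, -0.12 to 0.12 for STAT6, -0.26 to 0.89 for SOCS1, -0.59 to 0.57 for SOCS3, -0.40 to 0.0051 for CISH and -0.034 to 0.13 for ELF5. The same alternatives were also run on the named genes of the other lists, an extension chosen after seeing the data. Depth limits SOCS1, SOCS2 and SOCS3, with at most 61 counts in a library.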
